A study of Mus musculus with 6 samples.

Results

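Heat shock chaperones are described here across 6 liver RNA sequencing libraries of mice. The 10 genes Hspa1a, Hspa1b, Hspa8, Hsp90aa1, Hsph1, Hspb1, Dnajb1, Hspd1, Hspe1 and Bag3 were chosen by name from the 24034 genes of the table, and all 10 were found once. The animals were C57BL/6 at 25 weeks of age, with no treatment or substrain given. Of the libraries, 3 were wild type (WT, genotype label lncenc1wt/wt) and 3 were homozygous for another allele of Lncenc1, a gene for a long non-coding RNA (HO, genotype label lncenc13A/3A). The series' design text calls these mice knockouts. The sources used here do not say what the allele changes. RNA of Lncenc1 itself was not analysed here, and the labels alone give the genotypes. The comparison asks how adult liver differs between these genotype labels. Nothing in the labels ties each library to its own animal, so the p-values cover only the spread between samples, which may be technical. A difference in genetic background cannot be told apart from the allele.

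Heat shock proteins are chaperones that hold unfolded proteins and help them fold. HSP70 proteins bind short greasy stretches of a client under the control of J-domain proteins, which trigger ATP hydrolysis, and of nucleotide exchange factors, which release the client. HSP90 then matures kinases and hormone receptors, small heat shock proteins hold clients without ATP, and HSP60 with its lid HSP10 folds proteins inside mitochondria. Heat and other proteotoxic stress raise most of these genes through the factor HSF1, which binds inverted repeats of the unit GAA in their promoters. In mouse liver several of them also follow the daily rhythm of feeding and body temperature.

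Promoter stretches of 6 members are shown because they place the HSF1 unit in genes whose differences between the groups had opposite signs. The 250 bases before the start were searched for the pairs GAANNTTC and TTCNNGAA, each its own reverse complement, so that both strands are covered. The RefSeq table (GRCm38.p6, the assembly of mm10) held 11 windows for 8 members. Hspa8 and Hsp90aa1 had none. At least 1 pair was found in 7 of the 11 windows, for 6 of the 8 members, against 12.8% of all 32851 windows of the table. These windows are not separate sites, so the shares are not directly comparable. Hspd1 and Hspe1 hold the same site on opposite strands, and both Hsph1 windows hold the same match. The Hspa1a and Hspa1b windows are near-identical copies. Bag3 and Dnajb1 had no such pair within these 250 bases. Alternating triplets (GAANNTTCNNGAA or TTCNNGAANNTTC, which contain the pairs) were found in 0.466% of all windows and in Hspd1 and Hspe1. A match describes letters and is not a measured binding site. The stretches below read 5′ to 3′ on the gene's strand, with matches in capitals.
Hspa1a (chr17:34972223-34972290, minus strand): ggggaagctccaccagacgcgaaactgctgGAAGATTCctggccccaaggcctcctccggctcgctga
Hspa1b (chr17:34959305-34959372, minus strand): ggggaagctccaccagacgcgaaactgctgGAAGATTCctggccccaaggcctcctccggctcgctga
Hspe1 (chr1:55088053-55088082, plus strand): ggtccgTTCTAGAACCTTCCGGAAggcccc
Hspd1 (chr1:55088053-55088082, minus strand): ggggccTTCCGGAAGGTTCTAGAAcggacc
Hspb1 (chr5:135887772-135887859, plus strand): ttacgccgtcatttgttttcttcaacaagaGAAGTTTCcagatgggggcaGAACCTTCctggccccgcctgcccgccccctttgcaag
Hsph1 (chr5:149636351-149636380, minus strand): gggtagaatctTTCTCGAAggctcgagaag
The Hspa1a and Hspa1b stretches had 0 differences, and their whole 250-base windows had 3. Hspe1 and Hspd1 share 1 stretch, printed on opposite strands. For Hspd1 it lies before a second start, within the span of the gene. The Hspd1 window before the gene's outer end at 55088243 had no pair. The shared stretch and the Hsph1 stretch were kept to 30 bases, since GENCODE places alternative first exons there.

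None of the 10 genes passed the test of HO against WT, and they did not move as a block. The stress-inducible HSP70 genes Hspa1a and Hspa1b and their J-domain partner Dnajb1 had lower means in HO. Hsph1, Hspb1, Hsp90aa1, the HSP60 gene Hspd1, its lid Hspe1 and constitutive Hspa8 had higher means, and the groups covered much the same range for Bag3. In bulk liver, fewer cells of a type and less RNA per cell cannot be told apart. The test was limma on log2(FPKM + 0.5), with Benjamini-Hochberg adjustment at 0.05 over the 13250 genes whose mean reached 0.5 FPKM. FPKM is the number of fragments scaled for transcript length and library size. All 10 members passed that filter. Of all genes tested, 1.14% passed (0.325% higher and 0.815% lower), and none of the members did, with limma adjusted p-values from 0.113 to 0.791. At an unadjusted p under 0.05 there were 5 members, 3 higher and 2 lower, against 21.5% of all genes (5.01% higher and 16.5% lower). The median log2 change was 0.16 over the members and -0.09 over all genes tested.

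**Figure D1:**
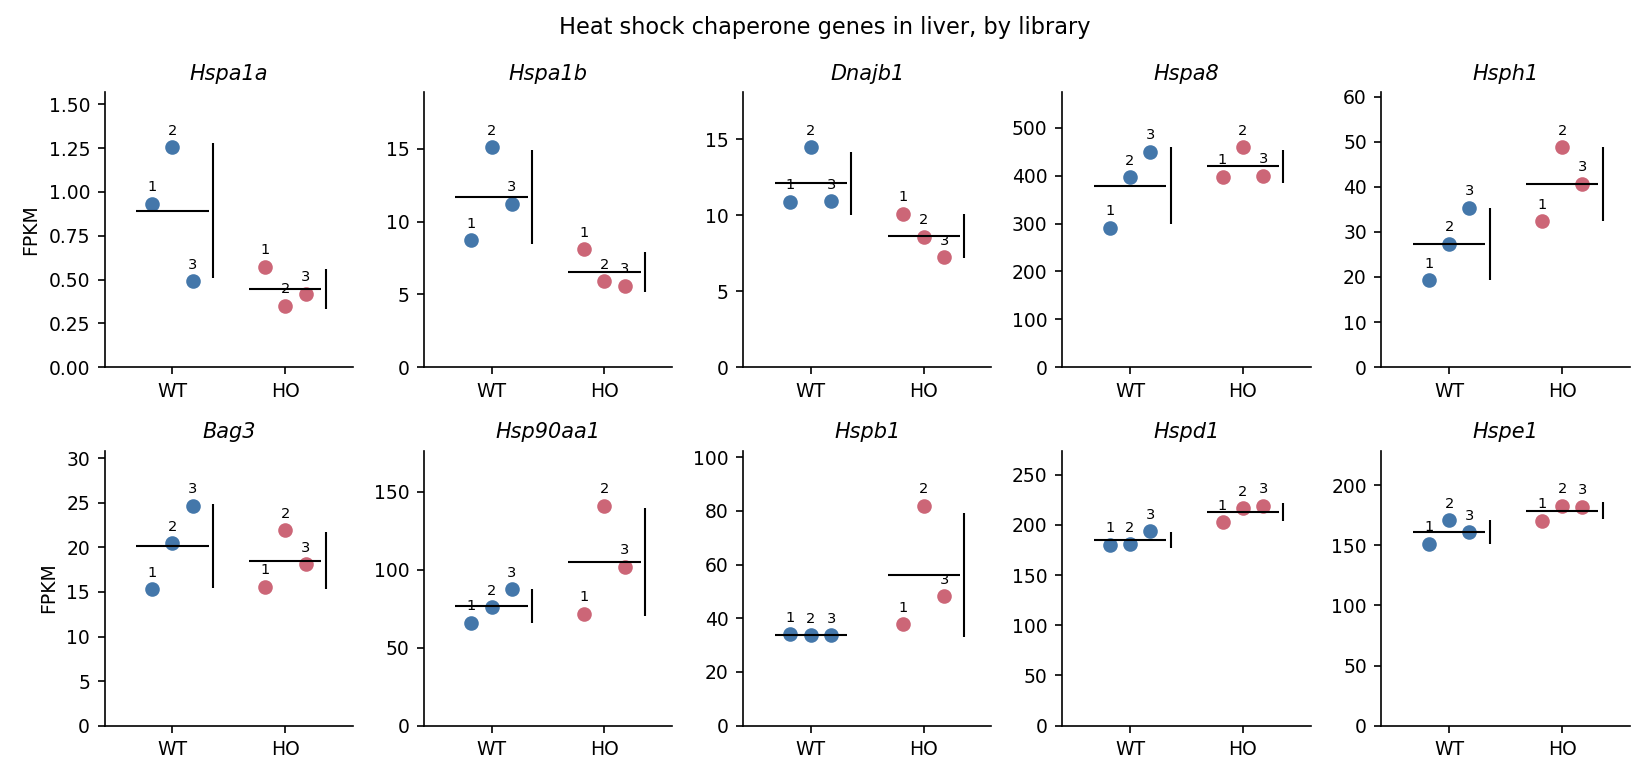
FPKM of the 10 genes in the 3 WT (blue) and 3 HO (red) libraries, numbered by replicate, each panel with its own axis from 0. Horizontal lines are group means and vertical bars 1 SD on either side, and Hspa1b, Dnajb1, Hspb1 and Hspd1 are the panels where the groups do not overlap.

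Between groups, 4 of the 10 genes did not overlap, 2 higher in HO (Hspb1 and Hspd1) and 2 lower (Hspa1b and Dnajb1). The same was true of 27.9% of all genes tested, 6.42% higher and 21.4% lower. Over the 6 libraries the order of mean FPKM was Hspa8 (399), Hspd1 (199), Hspe1 (169.8), Hsp90aa1 (90.7), Hspb1 (44.9), Hsph1 (34.0), Bag3 (19.3), Dnajb1 (10.4), Hspa1b (9.12) and Hspa1a (0.671). In that order the ranges over libraries did not overlap between Hspa8 and Hspd1, Hspe1 and Hsp90aa1, Bag3 and Dnajb1, or Hspa1b and Hspa1a. All other neighbours overlapped.

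Hspa1b encodes the HSP70 that cells make under stress. It was at 8.72, 15.1 and 11.2 FPKM in WT replicates 1, 2 and 3 and at 8.10, 5.91 and 5.60 in HO. All HO values lay under all WT values, with a narrow gap between WT replicate 1 and HO replicate 1. The mean was 11.7 ± 3.23 (SD, n = 3) in WT against 6.54 ± 1.36 in HO. The log2 change was -0.78 ± 0.22 (SE), with a 95% interval from -1.29 to -0.26 and a limma adjusted p = 0.113, the smallest of the 10. It was -0.67 with median-of-ratios scaling, and ran from -0.96 without WT replicate 1 to -0.58 without WT replicate 2. The gene has a single exon on chromosome 17, from 34956436 to 34959238 (mm10, minus strand).

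Hspa1a, which encodes a near-identical HSP70, lies 9952 bases from it, from 34969190 to 34972156. It was at 0.933, 1.26 and 0.490 FPKM in WT replicates 1 to 3 and at 0.574, 0.351 and 0.418 in HO. WT replicate 3 fell within the HO range and the other WT libraries above it. Its log2 change was -0.52 ± 0.24 (SE, 95% interval -1.08 to 0.04, limma adjusted p = 0.259), on a scale that understates changes of genes this low. With a pseudocount of 0.1 it was -0.80, and without WT replicate 2 it was -0.34. Judged by the step of 1 read in the low values, these were 25.6 to 87.7 read equivalents, a rough figure since counts were not recovered. Counting error weighs more here than for the other members.

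The 2 genes cannot be fully separated by short reads. Their coding sequences in GENCODE were 99.4% identical over 1926 aligned bases, with 8 mismatches and 3 gap columns. Of all stretches of 50 bases in the Hspa1a transcript, 58.8% also occurred in Hspa1b, and 47.1% of those of 100 bases. The sources used here do not say how the authors' counting split such reads. Summed into 1 gene, an alternative chosen after seeing the data, the pair gave a log2 change of -0.79 (limma adjusted p = 0.107). Hspa1a also shares 564 exonic bases with the opposite-strand gene Gm20481.

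Dnajb1 encodes HSP40, the J-domain protein that hands clients to HSP70. It was at 10.9, 14.5 and 10.9 FPKM in WT replicates 1 to 3 and at 10.1, 8.59 and 7.22 in HO. The HO values were all lower, and HO replicate 1 came within 1 FPKM of the lowest WT libraries. The log2 change was -0.46 ± 0.16 (SE, 95% interval -0.85 to -0.08, limma adjusted p = 0.168). It was -0.36 with median-of-ratios scaling, and ran from -0.59 with array weights to -0.33 without WT replicate 2. The gene lies on chromosome 8 from 83608193 to 83612653 (plus strand). Of the 45 pairs among the 10 genes, Hspa1b and Dnajb1 had the highest correlation over the 6 libraries (Pearson's r = 0.96, a description over points that share libraries and group).

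Hspa8 encodes HSC70, the constitutive HSP70 of nearly all cells, and was the most abundant member. It was at 291, 397 and 449.8 FPKM in WT replicates 1 to 3 and at 398, 460.0 and 400.4 in HO. WT replicate 1 stood below the other 5 libraries, and the groups overlapped. The log2 change was 0.17 ± 0.16 (SE, 95% interval -0.22 to 0.55, limma adjusted p = 0.603). It was -0.01 without WT replicate 1, 0.10 without HO replicate 2, 0.30 without WT replicate 3 and 0.28 with median-of-ratios scaling. The gene is on chromosome 9, from 40800984 to 40810087 (plus strand), and small nucleolar RNAs of the Snord14 family lie within it.

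Hsph1 encodes HSP110, a nucleotide exchange factor that frees clients from HSP70. WT replicates 1 to 3 had 19.2, 27.4 and 35.4 FPKM and HO replicates 1 to 3 had 32.4, 48.8 and 40.7. Only HO replicate 1 fell within the WT range. The mean was 27.3 ± 8.07 (SD, n = 3) in WT against 40.6 ± 8.22 in HO, a log2 change of 0.59 ± 0.24 (SE, 95% interval 0.03 to 1.15, limma adjusted p = 0.215). Without WT replicate 1, its lowest library, the log2 change was 0.36. Hsph1 lies on chromosome 5 from 149614287 to 149636376 (minus strand).

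Bag3 encodes another exchange factor of HSP70, which couples it to small heat shock proteins and to autophagy. Its values were 15.3, 20.5 and 24.7 FPKM in WT replicates 1 to 3 and 15.6, 21.9 and 18.1 in HO. All HO libraries lay within the WT range. Its log2 change of -0.11 ± 0.20 (SE, 95% interval -0.57 to 0.35, limma adjusted p = 0.791) lay next to the median of all genes, and was 0.004 with median-of-ratios scaling. Bag3 is on chromosome 7, from 128523616 to 128546981 (plus strand).

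**Figure D2:**
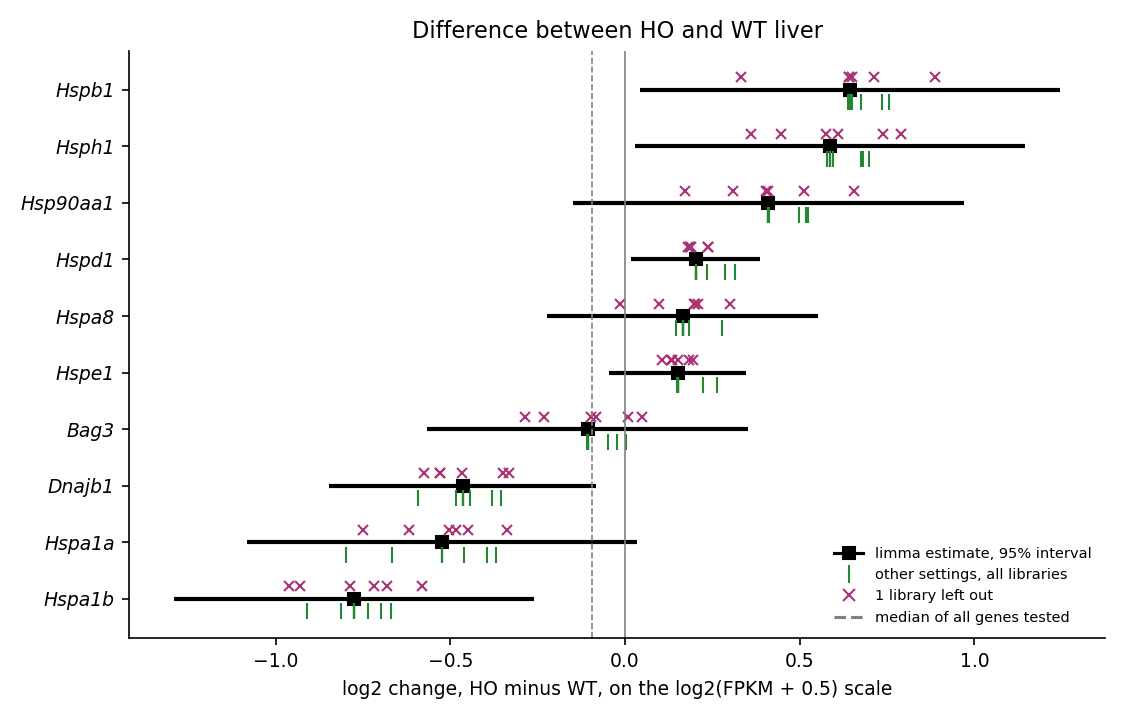
Log2 change of HO against WT on the log2(FPKM + 0.5) scale for each gene, with limma's 95% interval (black), the estimates of the other settings with all libraries (green ticks) and those with 1 library left out (purple crosses). Hspa1b, Hspa1a and Dnajb1 stayed below 0 and Hspb1, Hsph1, Hsp90aa1, Hspd1 and Hspe1 above 0 in each setting shown.

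Hsp90aa1 encodes the inducible form of cytosolic HSP90. It was at 65.9, 75.9 and 87.5 FPKM in WT replicates 1 to 3 and at 71.8, 141 and 101.9 in HO. HO replicate 2 was far above the rest, while HO replicate 1 fell among the WT libraries. The mean was 76.4 ± 10.8 (SD, n = 3) in WT against 104.9 ± 34.7 in HO, with a log2 change of 0.41 ± 0.24 (SE, 95% interval -0.15 to 0.97, limma adjusted p = 0.365). Leaving out HO replicate 2 gave 0.17, and leaving out HO replicate 1 gave 0.66. The gene lies on chromosome 12 from 110690605 to 110702728 (minus strand). Its constitutive counterpart Hsp90ab1 had 429 ± 35.8 FPKM in WT against 473 ± 45.2 in HO (limma adjusted p = 0.490).

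Hspb1 encodes HSP27 (HSP25 in mice), a small heat shock protein that holds unfolding clients. The WT libraries lay close together at 34.0, 33.7 and 33.7 FPKM, and HO replicates 1 to 3 had 37.7, 82.0 and 48.3. All HO values were higher, by unequal amounts. The log2 change was 0.64 ± 0.26 (SE, 95% interval 0.04 to 1.25, limma adjusted p = 0.208), and 0.33 without HO replicate 2. Hspb1 is on chromosome 5, from 135887919 to 135889563 (plus strand), with its 2 GAANNTTC matches shown above. Of the other small heat shock proteins, Hspb8, a partner of Bag3, had 86.2, 88.6 and 109 FPKM in WT against 104.2, 176 and 190.3 in HO (log2 change 0.69 ± 0.23 and 0.154 as limma's adjusted p). HO replicate 1 was its only HO library within the WT range. Without that library the log2 change of Hspb8 was 0.96 and the gene passed (limma adjusted p = 0.0398). Among the other settings Hspb8 passed only with array weights (limma adjusted p = 0.0445). Hspb6 had 11.9 ± 1.68 in WT against 9.31 ± 0.504 in HO (limma adjusted p = 0.184).

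Hspd1 encodes HSP60, the barrel of the mitochondrial chaperonin. It was at 180.3, 180.5 and 193.7 FPKM in WT replicates 1 to 3 and at 203, 216 and 219 in HO. Every HO library exceeded every WT library, by a small margin. The mean was 185 ± 7.70 (SD, n = 3) in WT against 213 ± 8.78 in HO, and the log2 change 0.20 ± 0.08 (SE, 95% interval 0.02 to 0.39, limma adjusted p = 0.199). Its standard error was the smallest of the 10. With median-of-ratios scaling the log2 change was 0.32.

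Hspe1 encodes HSP10, the lid of that barrel. It was at 151, 170.8 and 160.9 FPKM in WT replicates 1 to 3 and at 170.5, 183 and 182 in HO. WT replicate 2 exceeded HO replicate 1 by less than 1 FPKM, and the groups otherwise did not overlap. Its log2 change was 0.15 ± 0.08 (SE, 95% interval -0.04 to 0.35, limma adjusted p = 0.343), and 0.26 with median-of-ratios scaling. The genes lie head to head on chromosome 1, Hspd1 from 55077835 to 55088243 on the minus strand and Hspe1 from 55088132 to 55091307 on the plus strand. They share 112 exonic bases, and the sources used here do not say whether counting used the strand. The ratio of Hspd1 to Hspe1 FPKM was 1.19, 1.06 and 1.20 in WT against 1.19, 1.18 and 1.20 in HO. WT replicate 2 stood below the other 5 libraries, which were close together.

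**Figure D3:**
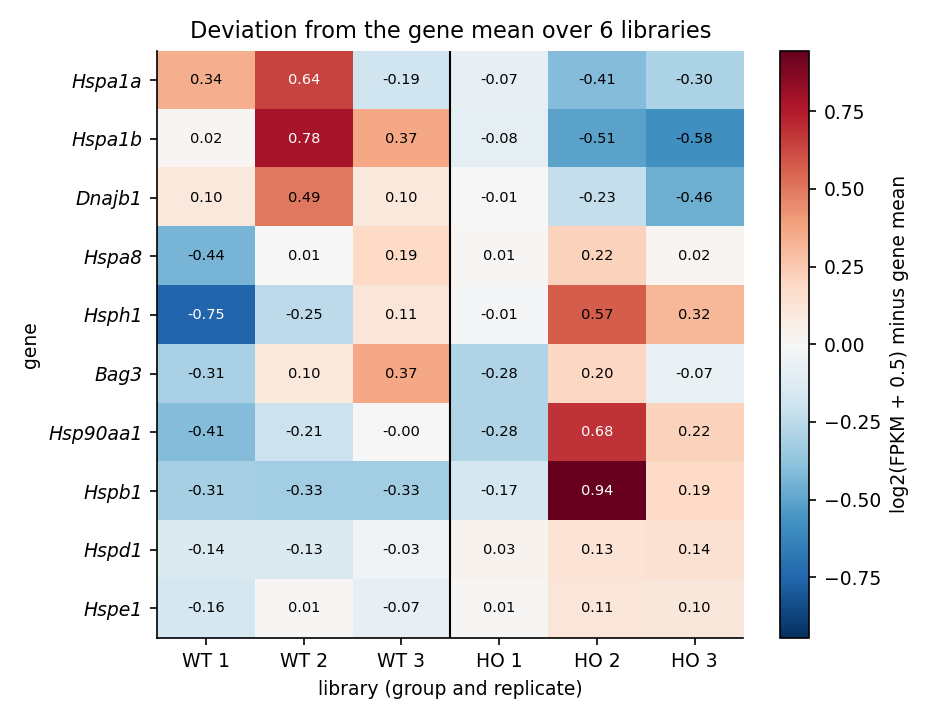
Each gene's log2(FPKM + 0.5) in each library minus its mean over the 6 libraries, with genes in rows and libraries in columns. Red is above and blue below the gene's mean, with WT replicate 1 low for 6 genes and HO replicate 2 high for Hspb1, Hsp90aa1 and Hsph1.

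The members split into sets that varied in opposite ways between libraries. Of the 45 pairs, 26 had a correlation over 0 and 19 one under 0 across the 6 libraries. The negative ones mostly joined Hspa1a, Hspa1b or Dnajb1, lower in HO, with members higher in HO. They therefore partly restate the differences between groups given above, and no share over all gene pairs was computed. The lowest were those of Hspd1 with Hspa1a and with Dnajb1 (Pearson's r = -0.90 and -0.89), which describe points that share libraries, depth and group. HO replicate 2 held the highest of the 6 values for 5 genes, and WT replicate 1 the lowest for 6. WT replicate 2 was the highest for Hspa1a, Hspa1b and Dnajb1. The 10 genes summed to 778, 937 and 1008 FPKM in WT replicates 1 to 3 and to 948, 1168 and 1024 in HO.

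Ratios, chosen after the values were seen, set the genes against each other within each library. Of 7 computed, the groups did not overlap in 2 and overlapped in 5. No share over the ratios of all genes was computed to read this against. Hspa8 exceeded Hspa1b 33.4, 26.3 and 40.0 times in WT replicates 1 to 3 and 49.1, 77.8 and 71.5 times in HO. The ratio was higher in every HO library than in any WT library. Hspa1b alone already did not overlap between groups, while Hspa8 did, so this ratio largely restates Hspa1b. Hsph1 stood at 0.0660, 0.0690 and 0.0786 of Hspa8 in WT against 0.0813, 0.106 and 0.102 in HO, again without overlap. Hsp90aa1 stood at 0.152, 0.164 and 0.224 of Hsp90ab1 in WT against 0.165, 0.270 and 0.221 in HO, and these overlapped. Hspa8 exceeded Dnajb1 26.7, 27.4 and 41.2 times in WT and 39.5, 53.6 and 55.4 times in HO, where only WT replicate 3 reached into the HO range. Dnajb1 to Hspa1b (1.25, 0.958 and 0.971, then 1.24, 1.45 and 1.29) and Hspa1b to Hspa1a (9.35, 12.0 and 22.9, then 14.1, 16.8 and 13.4) overlapped as well.

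**Figure D4:**
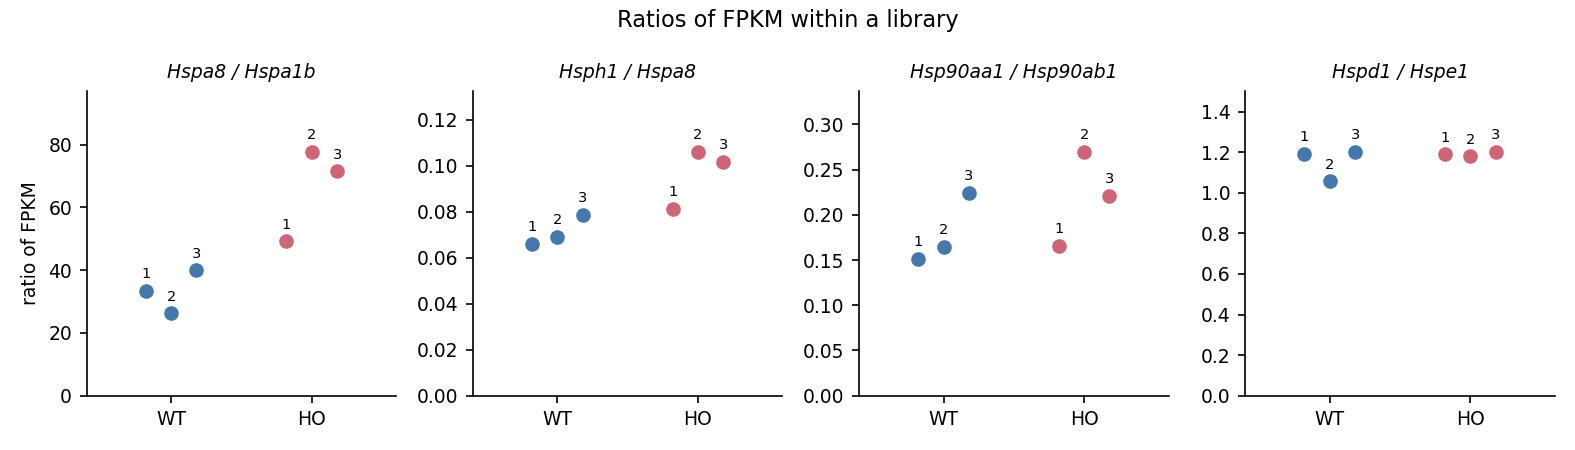
Ratio of FPKM between 2 genes within each library, WT in blue and HO in red, numbered by replicate, each axis from 0. The Hspa8 to Hspa1b and Hsph1 to Hspa8 ratios do not overlap between groups, while Hsp90aa1 to Hsp90ab1 and Hspd1 to Hspe1 do.

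The 10 standardised profiles were averaged, although the average mixes members that varied in opposite ways and need not match any of them. The genes most like this average over the 6 libraries were Mrm3, Dgkq, Edc4, Smad7, Gm48249, Gm4963, Nop58, Mbd6, Gmeb1 and Gm11962. Their Pearson's r ran from 0.97 to 0.98 among 11561 genes whose mean reached 1 FPKM. The least like were 4933404O12Rik, Tcp11l1, Lrrc8dos, Tada3 and Lrrc25, all at -0.99. With 6 libraries and this many candidates, some r values near 1 or -1 arise by chance, so no link to the members is drawn. None of these 15 genes passed the test between groups, and the average profile itself overlapped between groups. The average profile was lowest in WT replicate 1 (-0.77) and highest in HO replicate 2 (0.59).

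The wider chaperone system held 1 gene that passed. Among 107 tested genes of 10 lists (heat shock factors, other HSF1-responsive genes, co-chaperones, further HSP70, J-domain and small heat shock proteins, cytosolic chaperonin, prefoldin, mitochondrial and endoplasmic reticulum chaperones), Fkbp5 rose and none fell, where 1.14% of all genes passed. At an unadjusted p under 0.05 there were 8 higher and 14 lower of the 107, against 5.01% and 16.5% of all genes. The groups did not overlap for 13 higher and 20 lower, against 6.42% and 21.4%. The median log2 change was -0.02. Fkbp5 encodes FKBP51, an immunophilin that rides on HSP90 in steroid receptor complexes and is itself induced by glucocorticoids. It was at 9.99, 18.2 and 17.7 FPKM in WT replicates 1 to 3 and at 39.8, 53.2 and 43.2 in HO. The HO values were all above the highest WT value, and the log2 change was 1.57 ± 0.24 (SE, limma adjusted p = 0.0372). The call was lost without WT replicate 1 (0.0832) or WT replicate 2 (0.112), the values being limma's adjusted p. It was lost too without HO replicate 1 (0.0515), 2 (0.107) or 3 (0.105), while the log2 change stayed between 1.30 and 1.72 over all settings. It was also lost with no filter (0.0739), without the variance trend (0.0570) and with the replicate number as a block (0.0501).

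**Figure D5:**
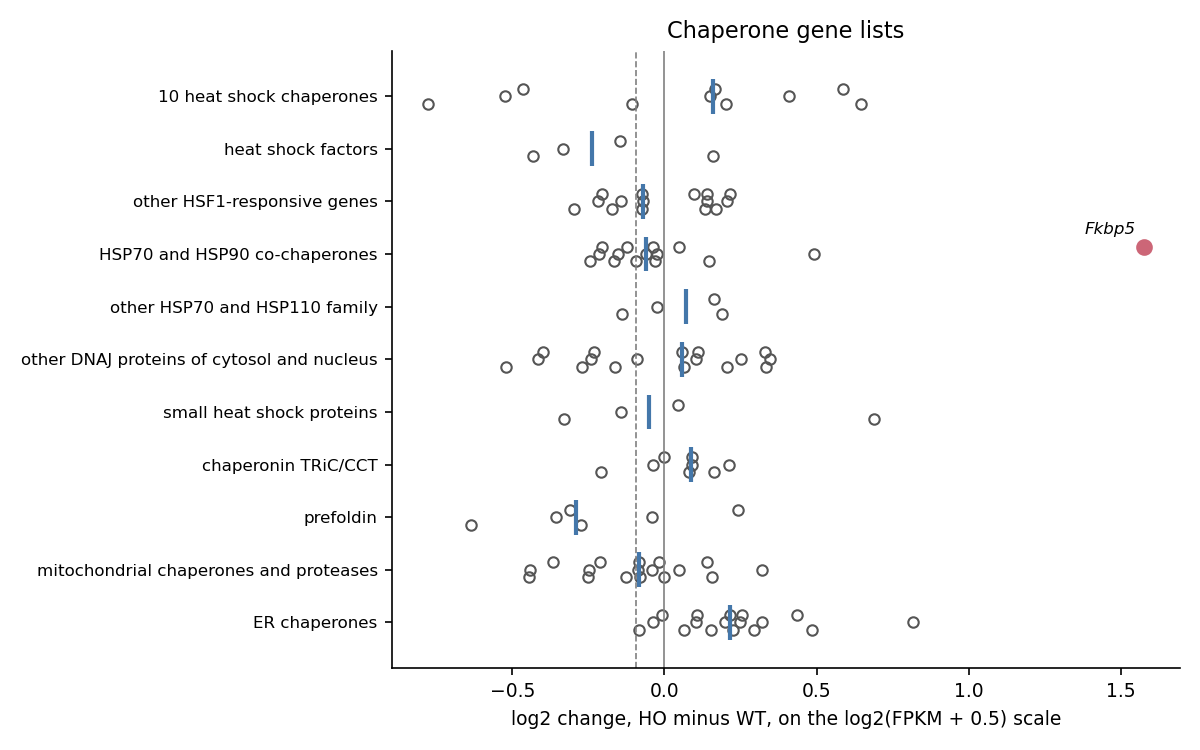
Log2 change of HO against WT for each tested gene of the 10 members and of 10 further chaperone lists, open circles for genes that did not pass and a filled circle for Fkbp5, which did. Blue bars are list medians and the dashed line is the median of all genes tested.

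The heat shock factors themselves stayed under the threshold. Hsf1, the master factor of the response, had 6.72, 6.39 and 7.05 FPKM in WT against 8.14, 7.40 and 7.17 in HO (limma adjusted p = 0.405). Hsf2, a related factor of development, had 13.5 ± 0.625 in WT against 9.88 ± 0.862 in HO, lower in all HO libraries (log2 change -0.43 ± 0.10 and 0.0847 as limma's adjusted p). Hsbp1, which binds HSF1 and restrains it, had 55.1 ± 4.64 and 43.7 ± 3.16 (limma adjusted p = 0.122). RNA levels of a factor do not measure its activity.

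Of 15 other HSF1-responsive genes none passed, 7 had a positive and 8 a negative log2 change, and the median was -0.07. Over all genes tested the median was -0.09. The collagen chaperone gene Serpinh1 had 9.16 ± 0.933 FPKM in WT against 7.34 ± 0.233 in HO (limma adjusted p = 0.177). Hspa4, another HSP110, had 35.1 ± 2.04 and 40.5 ± 2.92 (0.255 as the limma adjusted p). Fkbp4, which encodes the FKBP52 that competes with FKBP51 on HSP90, had 96.2 ± 4.02 and 85.4 ± 4.33 (limma adjusted p = 0.274). Of the co-chaperones, the myosin and HSP90 helper Unc45a had 5.59 ± 0.722 and 8.08 ± 1.24, and Fkbp8, an immunophilin of membranes, 131 ± 8.73 and 110.6 ± 2.83 (limma adjusted p = 0.131 and 0.155). The J-domain list had 17 tested genes, none of which passed, and a median of 0.06. Dnajb2, its member with the smallest p, had an adjusted p = 0.111 by limma.

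Prefoldin passes nascent actin and tubulin to the cytosolic chaperonin. Of its 6 subunits none passed, 5 had a negative log2 change and the median was -0.29, beside -0.09 over all genes tested. Pfdn5 had 39.5 ± 1.31 FPKM in WT against 30.8 ± 2.61 in HO, Pfdn6 38.9 ± 1.32 and 32.1 ± 1.83, and Pfdn1 17.1 ± 1.50 and 13.7 ± 1.16 (limma adjusted p = 0.0968, 0.128 and 0.168). The groups did not overlap for these 3 of the 6 subunits, all lower in HO, against 21.4% of all genes tested. The 3 were named for having the smallest p of their list. Of the 8 subunits of the chaperonin itself none passed and the median was 0.09. Cct7 had 33.4 ± 1.69 and 38.7 ± 0.256, and Tcp1 111.9 ± 8.93 and 96.6 ± 0.829, in opposite directions (limma adjusted p = 0.184 and 0.223).

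Of 17 tested chaperones and proteases that work beside Hspd1 and Hspe1 in mitochondria, none passed, 13 had a negative log2 change and the median was -0.08. That median lay next to the -0.09 over all genes tested. The share of negative changes over all genes was not computed. Hspa9, the mitochondrial HSP70, had 160.8 ± 2.93 FPKM in WT against 166 ± 6.41 in HO (log2 change 0.05 and 0.749 as limma's adjusted p). Its J-domain partner Dnaja3 had 36.8 ± 2.77 and 45.9 ± 1.01 (limma adjusted p = 0.107). The protease gene Htra2 had 7.45 ± 0.113 and 5.36 ± 0.463, and the import motor gene Dnajc19 32.6 ± 4.04 and 23.8 ± 2.45 (limma adjusted p = 0.0828 and 0.110).

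Chaperones of the endoplasmic reticulum, which answer to a different stress pathway, had 14 of 17 positive log2 changes and a median of 0.22, and none passed. The median over all genes tested was -0.09, and the share of positive changes over all genes was not computed. Hspa5, which encodes the reticulum's HSP70 BiP, had 237, 366 and 448 FPKM in WT replicates 1 to 3 and 300.2, 669 and 479 in HO (log2 change 0.44 ± 0.33 and 0.485 as limma's adjusted p). As for Hsp90aa1 and Hsph1, WT replicate 1 was its lowest library and HO replicate 2 its highest. Pdia6, a disulfide isomerase, had 134 ± 3.50 and 160.5 ± 12.1, with no overlap (limma adjusted p = 0.154).

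Other gene groups that follow temperature, handling or time of day also differed between libraries, and their part in the results above was not tested. Cirbp, an RNA-binding protein gene that rises in the cold, had 12.0, 11.3 and 12.4 FPKM in WT against 7.43, 8.05 and 5.83 in HO, lower in all HO libraries (log2 change -0.72 ± 0.13 and 0.0571 as limma's adjusted p). Rbm3, which also rises in the cold, had 12.1 ± 0.539 and 10.7 ± 1.44, with overlap (limma adjusted p = 0.425). None of 16 tested immediate early genes passed, with 3 higher and 4 lower in all HO libraries (against 6.42% and 21.4% of all genes), and their FPKM summed to 148 to 171 in WT and 119 to 173 in HO. None of 15 tested clock genes passed either. Their summed FPKM was 158, 169 and 294 in WT replicates 1 to 3 and 224, 226 and 223 in HO. WT replicate 3 stood apart there. Among WT libraries it was the highest for Hspa8, Hsph1, Bag3, Hsp90aa1 and Hspd1 and the lowest for Hspa1a and Hspb1.

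For the tissue label, 10 of 10 hepatocyte markers were detected, with sums of 51317 to 55468 FPKM for WT and 46879 to 50738 for HO, which did not overlap. Alb made up most of each sum, at 32400 ± 1084 FPKM (SD) in WT against 27996 ± 2318 in HO. The markers did not move together: 3 were higher in all HO libraries and 2 lower, against 6.42% and 21.4% of all genes. Of these 10, 1 passed and was higher in HO, Cps1, the first enzyme of the urea cycle (log2 change 0.86, limma adjusted p = 0.0422), named after its values were seen. None of the markers of the cell types below passed. Of all genes tested, 21.4% were lower in all HO libraries and 6.42% higher, and the counts below are read against those shares. Markers of stellate cells and fibroblasts summed to 109 to 137 FPKM in WT and 73.5 to 101 in HO, with 5 of 8 lower in all HO libraries. Those of macrophages summed to 75.5 to 134 and 62.3 to 81.5, with 2 of 8 lower. Those of endothelium summed to 54.8 to 66.3 and 46.0 to 53.3, with 3 of 8 lower. Smooth muscle markers, of a cell type rich in small heat shock proteins, summed to 7.53 to 9.90 and 7.21 to 9.49, with Cnn1 and Actg2 at 0 in some libraries. Sums of bile duct markers were 25.0 to 28.0 for WT and 20.3 to 23.2 for HO, without overlap, with 1 of 4 tested lower in all HO libraries. Neutrophil markers summed to 1.89 to 4.64 and 3.29 to 8.30, with 1 of 3 tested higher in all HO libraries (S100a9, named after its values were seen) and S100a8, Ly6g, Retnlg and Ngp at 0 in some or all libraries. Their part in the chaperone values was not tested.

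Over all genes, the HO libraries had lower middle values. As a rough estimate of depth, the low values gave 19100000 read equivalents in WT replicate 1, the fewest, to 24600000 in HO replicate 2, the most. FPKM summed to 495570 to 518218, and the middle gene stood at 0.853 to 0.879 FPKM in WT libraries against 0.742 to 0.788 in HO. Median-of-ratios scaling moved the median log2 change of all genes by 0.10 and turned the 43 higher and 108 lower calls into 70 and 64. Quantile normalization gave 56 and 72.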

How the data were processed

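Liver RNA was extracted with Trizol and made into directional libraries, per the labels' protocols. The deposited values are FPKM, which the authors computed per gene and library. For software, HISAT2, StringTie, HTSeq and DESeq2 are listed without version or role in the submitters' processing notes, beside the build mm10. The sources used here do not say which of them made the FPKM. Columns were matched to samples by group and replicate in their names. All 24034 identifiers were found in GENCODE mouse release 21, the source of positions.

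The 13250 genes whose mean reached 0.5 FPKM were fitted on log2(FPKM + 0.5) by group alone, using limma 3.58.1 (R 4.3.3) with a variance trend. The procedure was tested on simulated data first. Tests were two-sided. The members, lists and alternatives were chosen with earlier results of these data known, so no list is independent evidence. Depth was estimated from the step of 1 read, the most frequent value of FPKM times exonic length. Since 28.2% to 29.9% of low values came out whole (within 0.02 reads), counts were not recovered. The named genes are all members, and of each other chaperone list those past the threshold and otherwise up to 3 with the smallest p. Hsf1, Hsp90ab1, Hspa5, Hspa9, Hspa4, Cirbp and Rbm3 were named in any case, with the 10 genes most and the 5 least like the members' mean standardised profile. Alternatives were pseudocounts of 1 and 0.1, no filter or one at 1 FPKM, 2 scalings, eBayes without trend or robust, array weights (statmod 1.5.0), a replicate block, and each library left out. Tables used Python 3.11.15, numpy 2.4.6 and pandas 2.3.3, and figures matplotlib 3.10.9.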

Additional observations from a re-analysis of the deposited data

How the results depend on the processing

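None of the 10 members passed under any of the 16 other settings (with a filter at 1 FPKM, 9 were tested, Hspa1a being too low), and the smallest adjusted p was 0.0566 (Hspa1b with array weights, limma). Their median log2 change ran from 0.05 without WT replicate 1 to 0.27 with median-of-ratios scaling. Bag3 changed sign with median-of-ratios scaling (0.0037) and, at 0.049 without WT replicate 3 and 0.01 without HO replicate 1, when a library was left out (range -0.29 to 0.05). Hspa8 did so at -0.014 without WT replicate 1 (range -0.01 to 0.30). The other 8 members kept their sign, which for the 4 whose groups do not overlap had to be so when a library was left out. The number of all genes past the threshold was 151, and 100 with a pseudocount of 0.1, 40 with no filter, 77 without the trend, 941 with array weights, and 6 to 259 when 1 library was left out (WT replicate 1 gave 9, WT replicate 2 6, WT replicate 3 259, HO replicate 2 35 and HO replicate 3 15). Of the other chaperone genes 1 passed, and 0 with no filter or without the trend, 7 with array weights (Dnajb2, Dnajc19, Fkbp5, Hsf2, Hspb8, Htra2 and Pfdn5), and 0 to 1 when 1 library was left out. That 1 gene was Fkbp5 without WT replicate 3 and Hspb8 without HO replicate 1. With the replicate number as a block, 25 of all genes and 0 of the other chaperone genes passed. Same-numbered libraries did not deviate together (correlations of 0.07, -0.03 and 0.01), and the numbers were not taken as pairs. For these differences the cause was not tested. Hspa1a, at 25.6 to 87.7 read equivalents, is the member that depth limits most.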
